A study of Mus with 4 samples.

Results

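The genes described here are 7 matrix metalloproteinases (Mmp2, Mmp3, Mmp9, Mmp10, Mmp12, Mmp13 and Mmp14) and 3 tissue inhibitors of metalloproteinases (Timp1, Timp2 and Timp3), 10 genes in all of the 19505 that have a platform symbol. They were chosen by name, and each of the 10 is read by 1 probe set. The study asked how an shRNA against Nrf3 in the tumor cells and the diet of the host bear on gene expression in the tumor. Renca cells, a mouse renal adenocarcinoma line, stably expressed shNrf3 or a control shRNA (shCtrl) and grew for 2 weeks under the skin of the flank of male BALB/cCrSlc mice. The mice were 4 to 6 weeks old when bought and were fed normal chow (NC, CE-2) or a high-fat diet (HFD, HFD-60) for 17 weeks. The 4 groups, each with 1 Affymetrix array, are the control hairpin on chow (shCtrl-NC) and on high-fat diet (shCtrl-HFD) and the Nrf3 hairpin on chow (shNrf3-NC) and on high-fat diet (shNrf3-HFD). All 4 groups thus carried a hairpin in the tumor cells, while the host cells of the tumor carried none. The labels leave unsaid whether the hairpin cells were 1 clone or a pool, and how many tumors gave the RNA of an array.

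Matrix metalloproteinases are zinc-dependent proteases that cut collagens, laminins, elastin, fibronectin and proteins bound to the matrix. Most are secreted as inactive precursors that other proteases, plasmin among them, open, and the Timps block the active enzymes by binding in their active site. In tumors they come from fibroblasts, macrophages, neutrophils and endothelial cells as well as from cancer cells. RNA levels show neither the activation of a precursor nor the inhibition of an enzyme.

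Values are log2 RMA values, and a difference of 1 is 2-fold. No group has a second array, so a difference between 2 arrays comes without an error, and precision is limited by the small number of arrays. Negative control rows had medians of 5.35 to 5.39 and 95th percentiles of 8.97 to 9.35 on the 4 arrays, which sets the level below which a reading is hard to tell from background. Nfe2l3, the gene that encodes Nrf3, read 6.22 on shCtrl-NC and 5.56 on shNrf3-NC but 5.77 on shCtrl-HFD and 6.05 on shNrf3-HFD, so it did not follow the labels in HFD, and in all 4 arrays it lay under the 95th percentile of the controls. Groups are therefore named by the labels of their arrays, and every direction below rests on those labels. Skeletal muscle markers had a mean of 8.78 on shNrf3-NC and of 5.14 to 5.91 on the other 3 arrays, and adipocyte markers one of 9.11 against 7.27 to 8.38. Of the epithelial and renal tubule markers Krt8, Krt18 and Cdh1 were between 13.3 and 15.9 on all 4 arrays, while the tubule markers Pax8, Pax2, Havcr1 and Cdh16 lay under the control median on all 4. In bulk tumors fewer cells of a type and less RNA per cell cannot be told apart.

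Most of the 7 metalloproteinase genes chosen had lower levels in tumors labelled shNrf3. The stromelysin genes Mmp3 and Mmp10 were 2-fold or more lower in both diets, Mmp9 and Mmp13 in NC, and Mmp2 and the inhibitor Timp2 in HFD. Mmp12, the macrophage elastase, went the other way and was 3.32-fold higher in HFD, and Timp1 was 2.44-fold higher in NC. In NC 4 of the 10 genes lay 2-fold or more lower and 2 higher, while all 10021 genes tested (those with a mean of 5.73 or more) gave 4.52% lower and 13.3% higher. Of the 2 higher genes Timp3 lies at background and under that filter, which leaves 1 past it. In HFD 4 of the 10 lay lower and 1 higher, against 7.13% and 2.55% of all genes tested. The median difference of the 10 genes was -0.51 in NC, where the median of all genes tested was 0.14, and -0.94 in HFD, where it was -0.14. Since 9 of the 10 passed that level filter, Timp3 being the exception, the members' counts and medians are given over all 10.

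**Figure D1:**
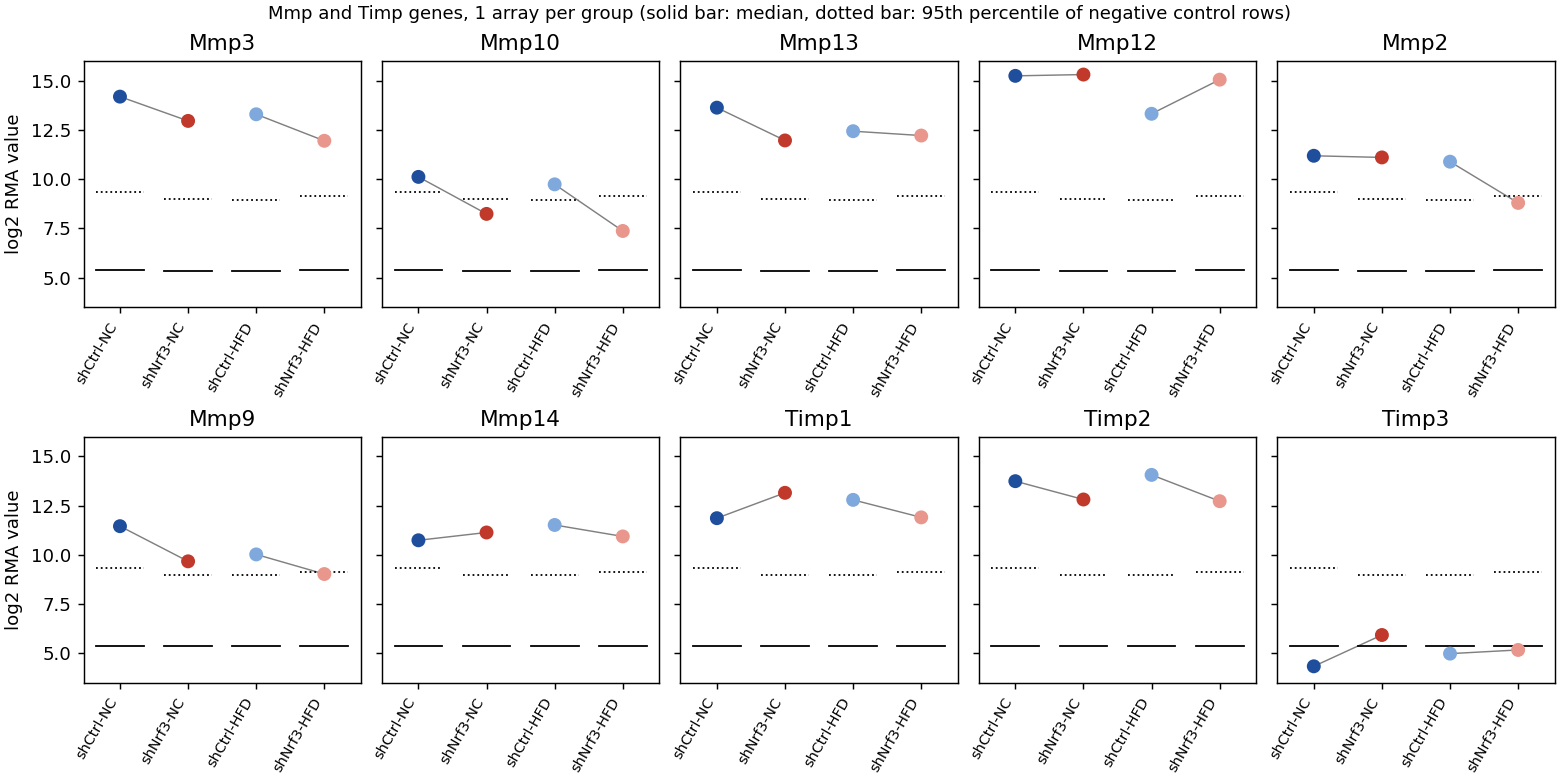
The log2 RMA value (vertical axis) of each gene is plotted for the 4 arrays, 1 point per array, with a line joining the shCtrl and the shNrf3 array of each diet. Black bars mark the median and dotted bars the 95th percentile of that array's negative control rows. Mmp10 lies under the dotted bar on both shNrf3 arrays, and Timp3 lies near the solid bar on all 4.

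Mmp3 and Mmp10, whose enzymes cut many matrix proteins and open the precursors of other metalloproteinases, were lower with shNrf3 by similar amounts in the 2 diets. Mmp3 (stromelysin 1) read 14.20 on shCtrl-NC, 12.96 on shNrf3-NC, 13.30 on shCtrl-HFD and 11.95 on shNrf3-HFD. The difference was -1.23 in NC (2.35-fold lower with shNrf3) and -1.35 in HFD (2.54-fold lower), and both shCtrl arrays were above both shNrf3 arrays. The HFD arrays of Mmp3 were lower than the NC arrays too, with differences of -0.90 for shCtrl and -1.01 for shNrf3, so that the construct and the diet differences added up with a remainder (the HFD knockdown difference less the NC one) of -0.11. After cyclic loess scaling that remainder was 0.33.

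Mmp10 (stromelysin 2) read 10.12 on shCtrl-NC, 8.24 on shNrf3-NC, 9.74 on shCtrl-HFD and 7.37 on shNrf3-HFD. It had the largest knockdown differences of the 10 genes in either diet, -1.88 in NC and -2.37 in HFD. Counted from the lowest, these were number 32 and number 24 of the 10021 genes tested. Both shNrf3 readings lay under the 95th percentile of the controls, above 91.9% (NC) and 83.0% (HFD) of the negative control rows, so the size of the difference is limited by background. Its diet differences were -0.38 for shCtrl and -0.87 for shNrf3. In the deposited scaling 2 of the 10 genes, Mmp3 and Mmp10, were 2-fold or more lower with shNrf3 in both diets, where 0.828% of all genes tested were. Timp2 was so too after loess (-1.23 and -1.19) and with arrays centred on the median of the genes tested (-1.14 and -1.12, a setting chosen after seeing the data), and Mmp9 was with arrays centred on the median of their transcript rows (-1.69 and -1.04).

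Mmp13 and Mmp12, neighbours on the chromosome, had different patterns. Mmp13 (collagenase 3), which cuts fibrillar collagens, read 13.63 on shCtrl-NC, 11.97 on shNrf3-NC, 12.44 on shCtrl-HFD and 12.22 on shNrf3-HFD. It was high on shCtrl-NC and lay between 11.97 and 12.44 on the other 3 arrays. The knockdown difference was therefore -1.66 in NC and -0.22 in HFD, and the diet difference -1.19 for shCtrl and 0.25 for shNrf3. Mmp12 (macrophage metalloelastase), which cuts elastin and is made mainly by macrophages, read 15.25 on shCtrl-NC, 15.32 on shNrf3-NC, 13.32 on shCtrl-HFD and 15.06 on shNrf3-HFD. Here the single low array was shCtrl-HFD. The HFD array was 3.80-fold lower than the NC array for shCtrl (-1.93) and differed by -0.26 for shNrf3. In HFD the shNrf3 array was higher by 1.73, number 18 of the 10021 genes from the highest, while in NC the difference was 0.07, and -0.27 after loess.

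The genes for Mmp13, Mmp12, Mmp3 and Mmp10 lie in 1 cluster, in that order, with Mmp1b, Mmp1a, Mmp8, Mmp27, Mmp20 and Mmp7 between and after them (gene order from RefSeq annotation of mouse assembly GRCm38.p6). Neighbours did not move as a block. In HFD Mmp12 differed by 1.73, while Mmp13 on one side differed by -0.22 and Mmp3, the next member on the other, by -1.35. Mmp8 (neutrophil collagenase) differed by 0.79 in NC and -0.67 in HFD at levels of 5.77 to 7.36, under the 95th percentile of the controls. Mmp1b, Mmp1a, Mmp20 and Mmp7 had means under the filter, so their differences are not read, and Mmp27 was not analysed here.

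**Figure D2:**
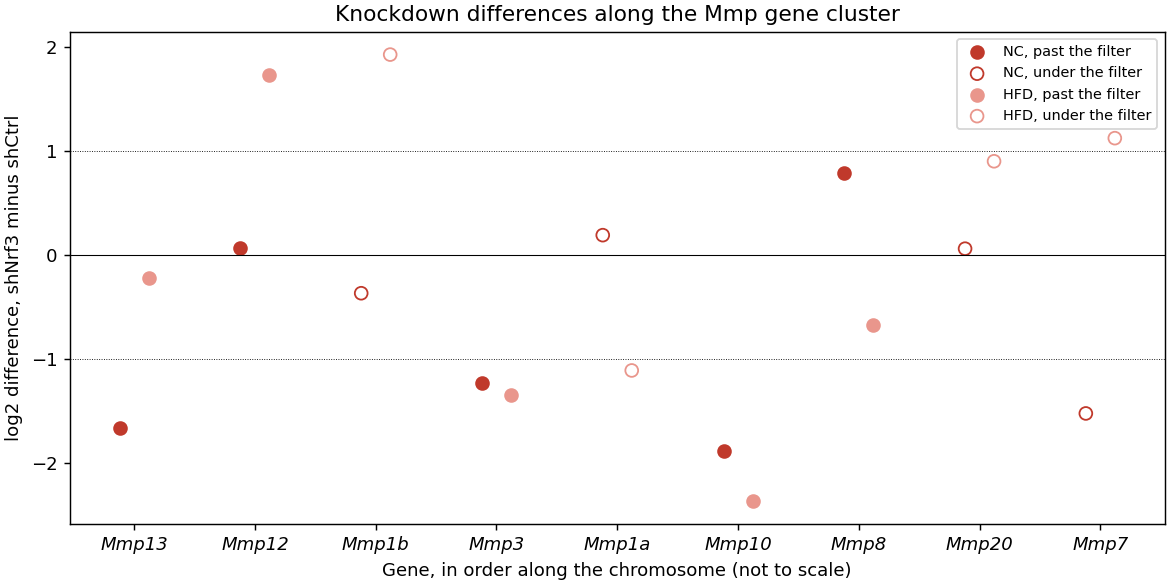
The log2 difference, shNrf3 minus shCtrl (vertical axis), is plotted for the 9 measured genes of the Mmp cluster in their order along the chromosome, dark for NC and light for HFD. Filled points are genes past the level filter and open points genes under it, and dotted lines mark 2-fold. Mmp3 and Mmp10 lie under the lower line in both diets, Mmp13 and Mmp7 in NC and Mmp1a in HFD. Mmp12, Mmp1b and Mmp7 lie above the upper line in HFD. Mmp1b, Mmp1a and Mmp7 are under the filter.

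The gelatinases, which cut denatured collagen and the collagen of basement membranes, differed from each other in the array that set the pattern. Mmp2 (gelatinase A), made mainly by fibroblasts, read 11.19 on shCtrl-NC, 11.11 on shNrf3-NC, 10.89 on shCtrl-HFD and 8.80 on shNrf3-HFD. The first 3 arrays lay between 10.89 and 11.19 and shNrf3-HFD alone was low, under the 95th percentile of its controls (9.13). Its knockdown difference was -0.08 in NC (0.01 with each array centred on the median of its transcript rows) and -2.09 in HFD (4.27-fold lower), and its diet difference -0.30 for shCtrl and -2.31 for shNrf3 (4.96-fold lower). Mmp9 (gelatinase B), which neutrophils store in granules and which macrophages, endothelium and tumor cells also make, read 11.46 on shCtrl-NC, 9.67 on shNrf3-NC, 10.02 on shCtrl-HFD and 9.02 on shNrf3-HFD. Here shCtrl-NC was high. The knockdown difference was -1.78 in NC and just short of 2-fold in HFD (1.99-fold lower), and it was -1.04 with arrays centred on the median of their transcript rows. The diet difference was -1.43 for shCtrl and -0.65 for shNrf3.

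Mmp14, the membrane-bound metalloproteinase that activates the precursor of Mmp2 at the cell surface, varied least of the 10 genes. It read 10.74 on shCtrl-NC, 11.14 on shNrf3-NC, 11.52 on shCtrl-HFD and 10.93 on shNrf3-HFD, a range of 0.78. The shNrf3 array was higher by 0.40 in NC and differed by -0.58 in HFD, and no difference reached 2-fold.

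The inhibitors did not share a pattern. Timp2, which at low levels takes part in the activation of Mmp2 by Mmp14 and at high levels blocks it, read 13.74 on shCtrl-NC, 12.81 on shNrf3-NC, 14.06 on shCtrl-HFD and 12.72 on shNrf3-HFD. Both shCtrl arrays were above both shNrf3 arrays, with differences of -0.93 in NC (-1.23 after loess) and -1.34 in HFD. The diet differences of Timp2 were small, 0.32 for shCtrl and -0.09 for shNrf3, and the first was -0.09 after loess. Timp1, which binds the precursor of Mmp9 and is induced by inflammatory cytokines, read 11.86 on shCtrl-NC, 13.15 on shNrf3-NC, 12.79 on shCtrl-HFD and 11.90 on shNrf3-HFD. Its high arrays were shNrf3-NC and shCtrl-HFD, so both comparisons changed sign between their groups. The knockdown difference was 1.29 in NC and -0.89 in HFD, and the diet difference 0.93 for shCtrl and -1.25 for shNrf3. In NC Timp1 and Mmp9 therefore differed in opposite directions, 1.29 against -1.78. Timp3, the inhibitor bound to the matrix, read 4.34, 5.93, 4.98 and 5.17 in the same order of arrays, near the control median. Its NC difference of 1.59 rests on a shCtrl reading under that median and was 0.55 with such readings set to the median.

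Read by construct over both diets, 5 of the 10 genes (Mmp3, Mmp9, Mmp10, Mmp13 and Timp2) had both shCtrl arrays above both shNrf3 arrays, an order found for 18.9% of all genes tested. The reverse order, found for 16.4%, occurred for Timp3, which lies at background and under the level filter. Read by diet, Mmp2 and Mmp12 had both NC arrays above both HFD arrays (10.4% of all genes), and 0 genes had the reverse (20.2%). Between diets the HFD array was 2-fold or more lower for 3 genes with shCtrl (Mmp9, Mmp12 and Mmp13, against 3.90% of all genes) and for 3 with shNrf3 (Mmp2, Mmp3 and Timp1, against 5.03%), and higher for 0 in each (14.6% and 1.87%). Mmp3 lay close to 2-fold with both constructs (-0.90 and -1.01), and after loess these values were -1.30 and -0.97, so that it was 2-fold lower with shCtrl and not with shNrf3, as it was with arrays centred on the median of the genes tested (-1.21 and -0.90). With 2-fold or more lower for both constructs there were 0 of the 10 genes, against 0.539% of all genes tested. The median diet difference of the 10 genes was -0.34 with shCtrl, where that of all genes tested was 0.26, and -0.70 with shNrf3, where it was -0.03. The shCtrl-NC array held the highest reading of Mmp2, Mmp3, Mmp9, Mmp10 and Mmp13, and shNrf3-HFD the lowest of Mmp2, Mmp3, Mmp9, Mmp10 and Timp2. How many of all genes tested had these extremes was not counted. The HFD knockdown difference less the NC one was 1 or more either way for 5 of the 10, where 28.3% of all genes were, from -2.18 for Timp1 to 1.67 for Mmp12. Among the 5 was Timp3 (-1.40), for which the value was -0.51 with readings under the control median set to it.

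**Figure D3:**
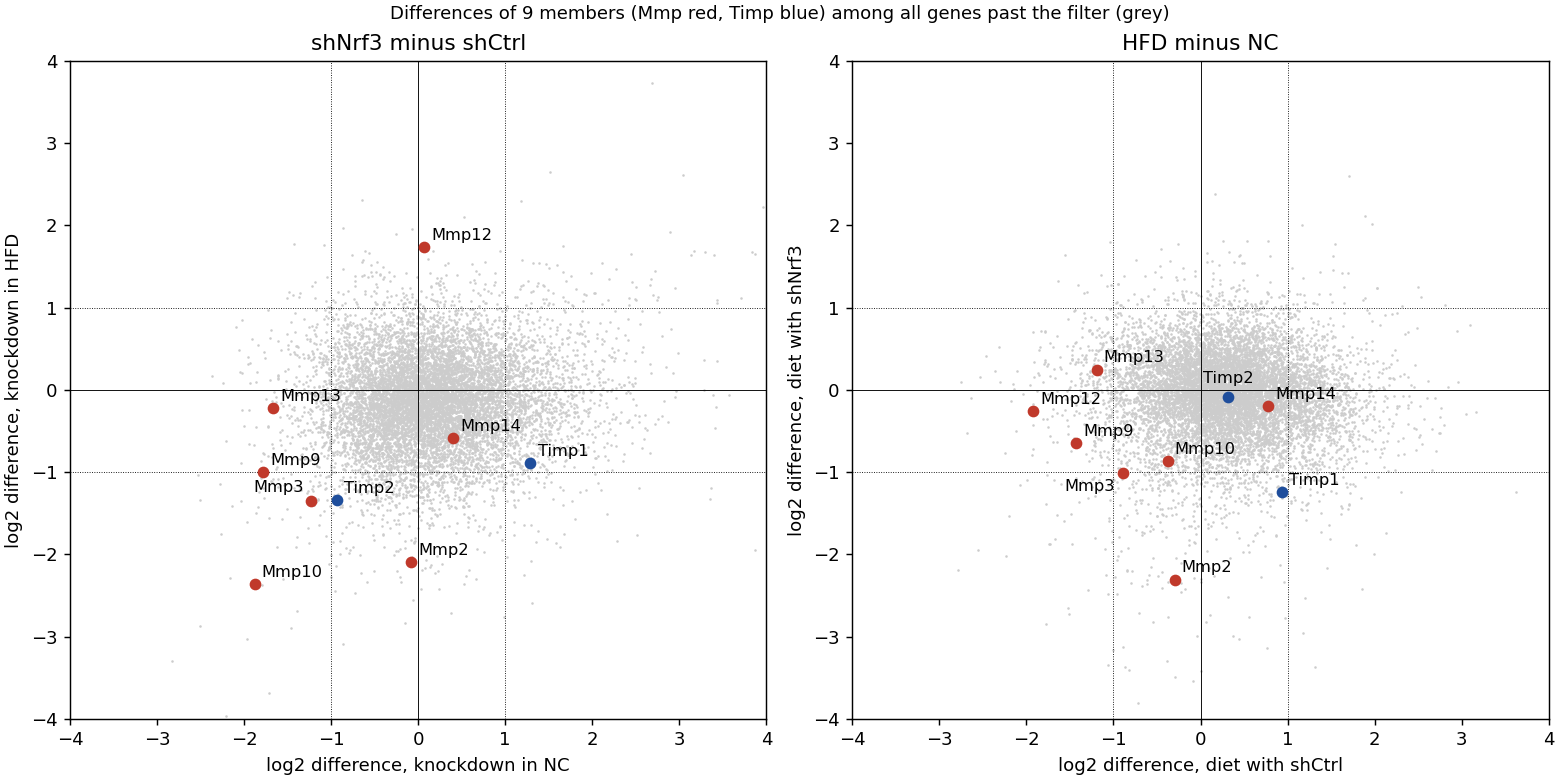
Each point is a gene, grey for all 10021 past the level filter and coloured for the 9 Mmp (red) and Timp (blue) genes among them. The left panel sets the log2 knockdown difference in HFD (vertical) against that in NC (horizontal), the right panel the log2 diet difference with shNrf3 against that with shCtrl. Dotted lines mark 2-fold, and points beyond 4 lie outside the axes. Mmp3 and Mmp10 lie beyond both lower lines at the left, and in the right panel 0 of the 9 do, where 0.539% of all genes tested do.

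A limma model with a construct and a diet term was fitted over the 10021 genes. It leaves 1 residual degree of freedom, which is the interaction of both terms. The error used for a gene is that residual moderated toward a value pooled over all genes tested. An SE is therefore not set by the gene's own interaction alone. The limma fit called 0 genes for either factor at an adjusted p of 0.05 (0.0% of those tested), with 447 genes at an unadjusted p under 0.05 for the construct and 292 for the diet. Among the 10 genes Mmp10 had the smallest p for the construct, with a log2 difference of -2.12 ± 0.39 (SE) and an adjusted p of 0.929 in limma, lower in 2 of 2 diets. With arrays centred on the median of the genes tested, a setting chosen after seeing the data, the fit gave Mmp10 an adjusted p of 0.0355 in limma, and over the 8 fits run its adjusted p went from 0.0355 to 0.959. For Mmp3 (-1.29 ± 0.38), Mmp9 (-1.39 ± 0.41) and Timp2 (-1.13 ± 0.39) the limma construct difference had an adjusted p of 0.961, with lowest values of 0.357, 0.352 and 0.468 over the 8 fits. The smallest unadjusted p for the diet was that of Mmp9 (-1.04 ± 0.41), with an adjusted p of 0.999 in limma. This SE does not cover how much tumors of a group vary.

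By the distance between values centred on each gene's own mean over the 4 arrays, the genes most like the 3 members with the largest range were the following, of 10020 genes searched. Nearest to Mmp10 (range 2.75) were Cpxm2, Gm773 and Pdgfb, at distances of 0.24, 0.45 and 0.51. Cpxm2 belongs to the carboxypeptidase X family of secreted proteins and Pdgfb encodes a growth factor for pericytes and fibroblasts. Nearest to Mmp9 (range 2.43) were the IGF carrier gene Igfbp3, the collagen VI chain gene Col6a3 and the adhesion gene Mcam, which marks pericytes and endothelium, at 0.22, 0.28 and 0.28. Nearest to Mmp2 (range 2.39) were the matrix protein gene Abi3bp, the neutrophil chemokine gene Cxcl1 and Cpxm1, at 0.15, 0.22 and 0.27. Cxcl1 read 8.98 on shNrf3-HFD and 11.00 to 11.40 on the other 3 arrays. With 4 arrays such likeness is a description only.

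Other metalloproteinase genes were mostly near background. Of 17 listed (16 Mmp genes and Timp4) 15 were measured, 10 of them lay under the control median on all 4 arrays, and 4 passed the level filter. Of these 4, only Mmp19, which cuts basement membrane proteins, read above the 95th percentile of the controls on 3 arrays, with 9.67 on shCtrl-NC, 10.56 on shNrf3-NC and 9.38 on shCtrl-HFD, against 8.52 on shNrf3-HFD. Its knockdown difference was 0.90 in NC and -0.86 in HFD and its diet difference with shNrf3 -2.05, the same array being low as for Mmp2. Mmp23 differed by -0.74 and 0.17 between constructs, and Mmp11 by 0.32 and -0.54.

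Genes that activate, bind or clear metalloproteinases differed in both directions. Of 18 measured, 4 lay 2-fold or more above shCtrl and 1 below it in NC, and 1 above and 1 below in HFD, with medians of 0.26 and 0.14. The 1 above in HFD was Cma1, which lay under the control median on all 4 arrays, and the 1 below was Sparc (-1.28). Of all genes tested 13.3% lay above and 4.52% below in NC, and 2.55% above and 7.13% below in HFD. Their medians were 0.14 and -0.14. Lcn2, the lipocalin that binds Mmp9 and shields it from breakdown, was higher by 1.88 in NC and 0.96 in HFD, where Mmp9 itself was lower. Bsg, the membrane protein known as an inducer of metalloproteinases, differed by 1.60 and 0.03, and Plaur, the receptor of the urokinase-type plasminogen activator, by 1.03 and 0.06. Thbs2, a matricellular protein that helps clear Mmp2, differed by -1.19 and -0.63, and -1.23 and -0.67 between diets (shCtrl and shNrf3).

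Of 14 measured ADAM and ADAMTS proteases, the related families that shed membrane proteins and cut proteoglycans, 2 lay 2-fold or more above shCtrl and 1 below in NC, and 0 above and 5 below in HFD (medians -0.27 and -0.49). Adam15, 1 of those above in NC, lay under the control median on all 4 arrays. All genes tested gave 13.3% above and 4.52% below in NC, and 2.55% and 7.13% in HFD (medians 0.14 and -0.14). Adam12 had nearly the same knockdown difference in both diets, -1.13 and -1.16, as Mmp3 had. Adamts4, an aggrecanase, differed by -0.97 and -1.50 and Adam8 by 1.79 and -0.17. Adamts5, the other aggrecanase, differed by -1.39 and -1.36 between diets. Unlike Mmp3, Adam12, Adamts4 and Adamts5 read, on all 4 arrays, under the control level below which a reading is hard to tell from background. Adam8 read above that level on shNrf3-NC only. The sizes of these differences are therefore limited by background. Of 17 measured matrix substrates 2 lay 2-fold or more below and 0 above in NC, and 7 below and 0 above in HFD (medians -0.28 and -0.90). Among them Dcn (decorin) differed by 0.14 in NC and -2.15 in HFD, with a diet difference of -3.35 for shNrf3, and Col3a1 by -0.83 and -1.92.

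Of 19 measured genes for transcription factors and cytokines known to induce metalloproteinases, 2 lay 2-fold or more above shCtrl and 1 below in NC, and 1 above and 3 below in HFD (medians 0.43 and -0.46). All genes tested gave 13.3% above and 4.52% below in NC, and 2.55% and 7.13% in HFD (medians 0.14 and -0.14). The NC counts of the list were near those shares. Il6 was lower with shNrf3 (-1.64 and -0.97) and in HFD (-2.20 and -1.53). Il1b, an inducer of stromelysins and collagenases, differed the other way by construct, 0.91 in NC and 1.04 in HFD. The AP-1 gene Junb differed by -0.46 and -1.22 and the ETS factor gene Ets1 by -0.81 and -0.89. The other AP-1 genes listed changed sign between the diets. Fos, Fosb, Fosl1, Jun and Jund were higher with shNrf3 in NC and lower in HFD, with 1.15 and -1.34 for Fosb. Fosl2 went the other way, with -0.19 and 0.43.

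Markers of the cell types that make these enzymes also differed between the arrays. Of all genes tested 4.52% were 2-fold or more lower with shNrf3 in NC and 7.13% in HFD. Of 11 measured fibroblast and pericyte markers 4 were 2-fold or more lower with shNrf3 in NC and 8 in HFD, and 0 higher in each. Their mean level was 12.56 on shCtrl-NC, 11.65 on shNrf3-NC, 11.85 on shCtrl-HFD and 10.51 on shNrf3-HFD. From high to low this was the order of arrays of Mmp3, Mmp9, Mmp10 and the mean of the endothelial markers. Single markers did not all have this order. Col1a1, Col3a1, Lum, Thy1, Postn, Pecam1, Cdh5, Kdr and Emcn had it. Col1a2, Pdgfrb, Dcn, Fap, Acta2, Rgs5, Flt1, Tek, Tie1 and Vwf did not. How many of all genes tested had it was not counted. Of 8 endothelial markers 5 were lower in NC and 3 in HFD, with means of 8.05, 7.01, 7.72 and 6.84 and with Tek under the control median on all 4 arrays. Past the level filter 4 were lower in NC and 3 in HFD, as Vwf (-1.62 in NC) lies under it. These means, Pecam1, Kdr, Tie1 and Vwf lay, on all 4 arrays, under the control level below which a reading is hard to tell from background. Cdh5, Flt1 and Emcn read above that level on shCtrl arrays only. The sizes of the endothelial differences are therefore limited by background. The part of fibroblasts, pericytes and endothelium in the Mmp and Timp differences was not tested.

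Macrophage and monocyte markers had means of 10.98 on shCtrl-NC, 12.37 on shNrf3-NC, 11.49 on shCtrl-HFD and 12.06 on shNrf3-HFD. Of these 11 markers 8 were 2-fold or more higher with shNrf3 in NC and 3 in HFD, against 13.3% and 2.55% of all genes tested. The mean was lowest on shCtrl-NC, while Mmp12 was lowest on shCtrl-HFD. So were the markers Cd163 (8.39), Mrc1 (12.32) and, narrowly, Lyz2 (15.065 on that array and 15.074 on shCtrl-NC). The other markers measured, Adgre1, Csf1r, Itgam, Ly6c1, Fcgr1, C1qa, C1qb and C1qc, were lowest on shCtrl-NC. C1qb was highest on shCtrl-HFD, where Mmp12 was lowest. Neutrophil markers had means of 7.21, 7.80, 8.36 and 8.19 in the order of the groups, lowest on shCtrl-NC, where Mmp9 was highest, and Mpo, Elane and Camp lay under the control median on all 4 arrays. The part of macrophages and neutrophils in the Mmp12 and Mmp9 differences was not tested. In the comparisons that use shNrf3-NC, where muscle and adipocyte markers stood high, 7 of 10 muscle and 5 of 9 adipocyte markers were 2-fold or more higher for knockdown in NC (medians 2.10 and 1.20), and 9 and 6 were lower for diet with shNrf3 (medians -2.89 and -1.50). These markers also differed in the comparisons without that array. For knockdown in HFD 6 of 9 adipocyte markers were 2-fold or more lower (median -1.33) and 5 of 10 muscle markers (median -0.90), and for diet with shCtrl 5 of 9 adipocyte markers were higher (median 1.05). Of all genes tested 13.3% were higher for knockdown in NC and 7.13% lower for knockdown in HFD. For diet 5.03% were lower with shNrf3 and 14.6% higher with shCtrl. These shares are over genes past the level filter, which 6 of the 10 muscle and 6 of the 9 adipocyte markers passed. Past it, 5 muscle and 4 adipocyte markers were higher for knockdown in NC, and 6 and 5 lower for diet with shNrf3. For knockdown in HFD 3 and 5 were lower, and for diet with shCtrl 3 adipocyte markers were higher. Plin4 and Lep, under the filter, lay under the control median on all 4 arrays. The part of muscle and fat in the Mmp and Timp differences was not tested.

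**Figure D4:**
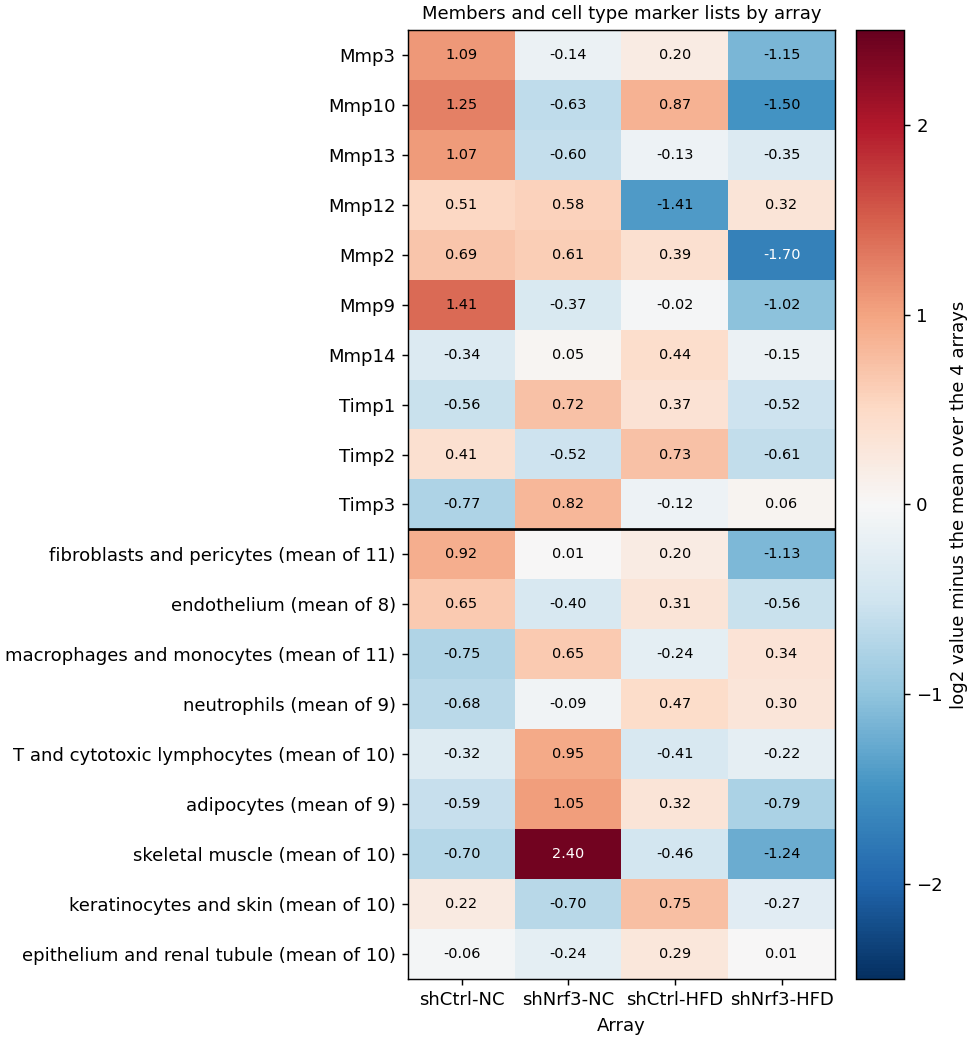
Each row gives the log2 value of a gene, or the mean over the measured markers of a cell type, minus its own mean over the 4 arrays (columns), with red for higher and blue for lower. Mmp3, Mmp9, Mmp10 and the means of fibroblast and pericyte and of endothelial markers are highest on shCtrl-NC and lowest on shNrf3-HFD. The mean of the skeletal muscle markers stands high on shNrf3-NC.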

How the data were processed

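Total RNA (100 ng) of tumor tissue was labelled with biotin for Affymetrix arrays, per the labels' protocols. The deposited values are log2 values that the authors made with Affymetrix Expression Console and RMA, per the submitters' processing notes; versions and the genome build are not given in these sources, so no coordinates are printed. The table holds 28846 rows, 5222 of them negative controls. The platform annotation names 19572 probe sets, and of several probe sets of a gene the one with the highest mean was taken. Differences of log2 values were computed between arrays, and 2-fold or more was counted. The additive fit used limma 3.58.1 in R 4.3.3 (lmFit, eBayes, Benjamini-Hochberg adjustment over all genes past the level filter) and was checked on simulated data. Alternatives were cyclic loess, centring on 2 medians, other level filters, probe set means, a floor at the control median, and eBayes with trend and robust. All 10 members were named. Of each other list, up to 4 genes past the filter with the largest averaged knockdown or diet difference were named. So were the 3 genes nearest to each of 3 members. The other AP-1 genes listed were named as well, to give both directions. The members and lists were chosen with earlier results of these data known.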

Additional observations from a re-analysis of the deposited data

Results flagged for a closer look

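Among the genes past the level filter, Mmp13, Mmp14, Timp1 and Timp2 had differences of opposite sign in the 2 groups compared. With 1 array per group these differences between groups were not tested. How many of all genes tested had opposite signs was not counted, so this is not read as a trait of these genes. Timp1 differed by construct in opposite ways in NC and HFD and by diet in opposite ways for shCtrl and shNrf3, with an HFD knockdown difference that was -2.18 relative to the NC one. The same held for Mmp14, at -0.98. By diet alone Mmp13 differed in opposite ways (1.44) and so did Timp2 (-0.41), whose 2 diet differences were both small (0.32 and -0.09) and had the same sign after cyclic loess (-0.085 and -0.048) and with arrays centred on the median of the genes past the filter (0.005 and 0.019), a setting chosen after seeing the data. Timp3, under the filter, also had diet differences of opposite sign (0.64 and -0.76).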

How the results depend on the processing

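Precision is limited by 1 array per group and by background for Mmp10, Mmp2, Mmp9 and Timp3. Of 250 alternative values of single differences 53 moved by 0.25 or more or crossed 2-fold, and 0 reversed a difference of 2-fold or more. Differences under 2-fold in the main setting could not count as reversed. Probe set means could change no value, since each gene has 1 probe set, and the floor at the control median could change only Timp3. The counts of the 10 genes 2-fold or more lower stayed within 1.5 times in all 15 recomputed. The median difference of the members for knockdown in NC was -0.76 after cyclic loess and -0.93 without Timp3 (main -0.51). For diet with shCtrl it was -0.65 after loess and -0.65 with arrays centred on the median of the genes past the filter, a setting chosen after seeing the data (main -0.34). For the HFD less the NC knockdown difference it was -0.064 and -0.026 in these settings (main -0.45). With arrays centred on all transcript rows 1 member, Timp1, was 2-fold higher by diet with shCtrl (main 0). The limma fit called 9 genes for the construct and 1 for the diet after loess, and 27 and 11 with the added centring (main 0 for both), Mmp10 being the only member among them. The share of higher genes among all that were 2-fold apart was 74.7% for knockdown in NC (63.0% after loess, 53.9% with the added centring), 26.4% in HFD (39.4% and 55.7%), 79.0% for diet with shCtrl (58.2% and 46.1%), 27.1% with shNrf3 (28.7% and 41.7%) and 22.8% for the HFD less the NC knockdown difference (39.6% and 55.0%). The cause of these changes was not tested. No paired analysis was possible because each group has 1 array and the labels number no replicates.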
